A study of Homo sapiens with 8 samples.

Results

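The human HOX genes were examined in MOLM-13 cells, an acute myeloid leukemia (AML) line with a rearranged KMT2A gene, after inhibition of the immunoproteasome. All genes of the count table named HOX followed by A, B, C or D and a number were taken, which gave 39 of 38551 genes with values: 11 in the HOXA cluster, 10 in HOXB, 9 in HOXC and 9 in HOXD. Values are given for 38 of them, and all counts and sums below are over these 38. RNA-sequencing libraries came from cells given the diluent DMSO (4 libraries) or 100 nM of PR-957 (ONX-0914, 4 libraries) for 72 h. PR-957 blocks PSMB8, one of the catalytic subunits of the immunoproteasome, and both groups were the same cell line without any genetic change by the study. The labels do not say whether the replicates were separate cultures, so p-values measure the spread between these samples, which may be technical.

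HOX genes encode homeodomain transcription factors that give cells along the body axis their position. They lie in 4 clusters on separate chromosomes, and a number marks the position of each gene in its cluster, with number 1 at the 3′ end and number 13 at the 5′ end. Genes with the same number in different clusters are called paralogs. During blood formation HOXA genes are active in stem and progenitor cells and are switched off as cells mature. KMT2A fusion proteins, held at chromatin by menin, keep the HOXA cluster active in leukemia, and HOX proteins bind DNA together with the TALE cofactors PBX and MEIS.

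Total counts per library ran from 16675036 to 23111223. All 9 myeloid markers examined (CD33, MPO, FLT3, CSF1R, SPI1, CEBPA, LYZ, ITGAM and FCGR1A) had a mean of at least 1 CPM, the unit of counts relative to library size, used here with TMM scaling factors. Their summed level ran from 1465 to 1556 CPM in DMSO and from 2238 to 2497 CPM in PR-957 libraries. Of 3 T cell markers none reached 1 CPM and 2 were at 0 in every library, and each erythroid, megakaryocyte and epithelial marker had a mean below 1 CPM. Of the others, 1 of 3 B cell and 1 of 3 fibroblast markers exceeded 1 CPM, with summed levels of 13.3 to 19.8 and 1.28 to 3.21 CPM over all libraries. Mitochondrially encoded genes took 1.94 to 2.75% of counts in DMSO and 4.15 to 5.24% in PR-957 libraries. The myeloid marker sum and the mitochondrial share thus moved with treatment, and their part in the results on HOX genes was not tested.

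Sequences upstream of 6 HOX genes are shown because the results turn on these genes: HOXA9, HOXA10 and HOXA13, which were lower with PR-957, their neighbour HOXA11, which did not pass the test, HOXC4, which was lower in the HOXC cluster, and HOXD13, which was higher. Each is the 250 bases before a transcription start in RefSeq (GRCh38.p14), written 5′ to 3′ on the strand of the gene. Of the 39 HOX genes, 20 had an entry. Capitals mark the motifs TATAAA (as in the TATA box), CCAAT (as in the CAAT box) and CACGTG (as in an E-box) read on either strand. Matches were marked at any distance from the start, and whether they act as such elements was not tested. Upstream sequences of all 34943 RefSeq promoters of the same length held TATAAA in 10.8%, CCAAT in 32.0% and CACGTG in 6.32%. For HOXA10 the start that lies outside the first exon shared with the readthrough gene is given, and HOXC5 has the same entry as HOXC4. For HOXD13 the start shown lies downstream of the first base of the model used for counting.
HOXA9, chr7:27165538-27165787, minus strand: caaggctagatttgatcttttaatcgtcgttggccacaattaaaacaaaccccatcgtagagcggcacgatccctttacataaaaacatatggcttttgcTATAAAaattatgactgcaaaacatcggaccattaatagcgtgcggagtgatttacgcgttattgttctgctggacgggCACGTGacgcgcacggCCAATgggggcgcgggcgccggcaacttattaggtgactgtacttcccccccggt
HOXA10, chr7:27174321-27174570, minus strand: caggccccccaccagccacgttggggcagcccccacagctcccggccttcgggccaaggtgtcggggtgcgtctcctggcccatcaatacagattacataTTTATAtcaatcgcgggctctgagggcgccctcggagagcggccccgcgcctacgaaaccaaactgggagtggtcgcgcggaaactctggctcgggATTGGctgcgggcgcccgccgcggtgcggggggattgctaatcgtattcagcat
HOXA11, chr7:27185233-27185482, minus strand: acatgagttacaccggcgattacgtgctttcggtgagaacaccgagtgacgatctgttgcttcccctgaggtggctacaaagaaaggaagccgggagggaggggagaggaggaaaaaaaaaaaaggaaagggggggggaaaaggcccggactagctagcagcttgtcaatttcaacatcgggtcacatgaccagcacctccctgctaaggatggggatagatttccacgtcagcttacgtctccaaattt
HOXA13, chr7:27200092-27200341, minus strand: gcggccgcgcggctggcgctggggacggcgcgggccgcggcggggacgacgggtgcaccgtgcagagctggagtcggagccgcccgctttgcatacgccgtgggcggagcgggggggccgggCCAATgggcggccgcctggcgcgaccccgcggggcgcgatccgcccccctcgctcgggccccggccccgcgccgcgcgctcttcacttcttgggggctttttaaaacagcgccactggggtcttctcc
HOXC4, chr12:54016638-54016887, plus strand: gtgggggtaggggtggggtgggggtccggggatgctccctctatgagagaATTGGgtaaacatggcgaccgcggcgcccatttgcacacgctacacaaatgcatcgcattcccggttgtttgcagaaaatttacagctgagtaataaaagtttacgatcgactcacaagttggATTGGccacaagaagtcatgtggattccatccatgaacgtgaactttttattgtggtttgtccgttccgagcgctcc
HOXD13, chr2:176092471-176092720, plus strand: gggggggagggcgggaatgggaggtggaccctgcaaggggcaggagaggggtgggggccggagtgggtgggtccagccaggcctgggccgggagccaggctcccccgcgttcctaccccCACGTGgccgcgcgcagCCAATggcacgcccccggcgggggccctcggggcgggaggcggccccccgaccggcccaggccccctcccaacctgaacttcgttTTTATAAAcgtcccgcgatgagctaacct
TATAAA was found before HOXA9, HOXA10 and HOXD13, where in HOXD13 the matches on both strands overlap. CACGTG was found before HOXA9 and HOXD13. HOXA11 held none of these motifs in this window, while the other 5 genes held CCAAT. CG dinucleotides numbered 40 before HOXA13, 24 before HOXA10, 21 before HOXD13, 20 before HOXA9, 14 before HOXC4 and 11 before HOXA11, against a median of 11 over all promoters. The motif TGATNNAT, a pattern bound by PBX and HOX proteins together, occurred in 6.49% of all promoters and in none of these 6 windows, but was found before HOXA2, HOXB1 and HOXD11.

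HOXA and HOXC were the clusters with appreciable RNA in these cells, while in HOXB and HOXD a single gene each, HOXB9 and HOXD13, passed the filter on low counts. Levels per length are given as FPKM, CPM divided by the exon length in kilobases, as mean ± SD over 4 DMSO libraries. Summed over its genes, HOXA reached 108.0 ± 4.18 FPKM, HOXC 32.9 ± 1.18, HOXB 1.13 ± 0.118 and HOXD 0.193 ± 0.0433. HOXA therefore held 75.9% of the summed HOX level and HOXC 23.2%. A total of 15 HOX genes had a mean of at least 1 FPKM, and all of them lay in HOXA or HOXC. The median over all genes tested was 5.28 FPKM.

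**Figure D1:**
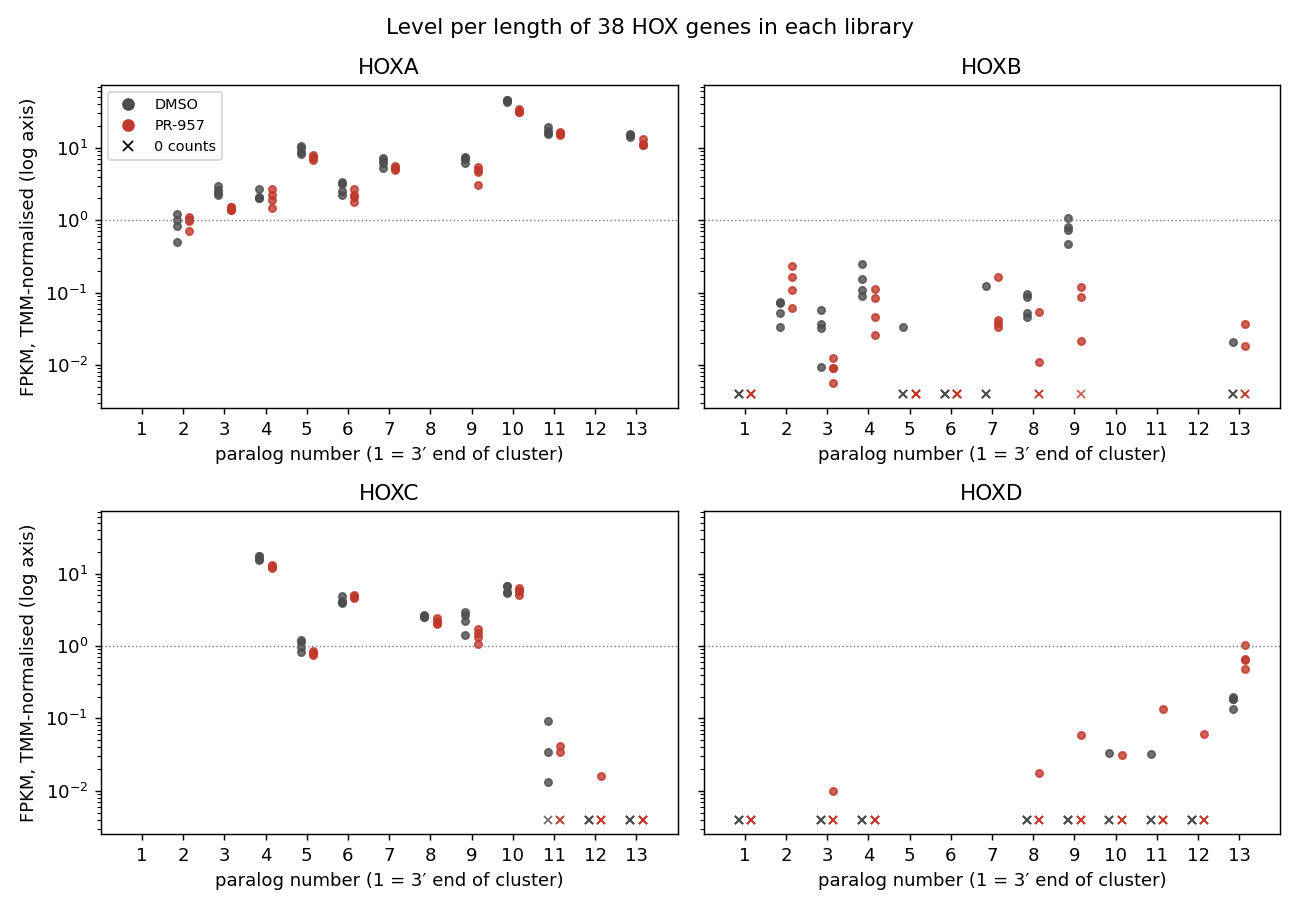
Level per length of each of 38 HOX genes in each library, by cluster and paralog number. The x axis is the paralog number and the y axis FPKM with TMM scaling on a log axis; points are libraries (grey DMSO, red PR-957), crosses are libraries with 0 counts, and the dotted line marks 1 FPKM. The genes with a DMSO mean above this line lie in HOXA and HOXC, with HOXA10 highest.

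Along HOXA the 5′ genes had the higher levels, but the rise was not steady. HOXA2 had 0.887 ± 0.304 FPKM. HOXA3 and HOXA4 lay at 2.56 ± 0.315 and 2.22 ± 0.329 FPKM. HOXA5 stood above both its neighbours at 9.39 ± 1.05 FPKM, since HOXA6 had 2.81 ± 0.538. HOXA7 had 6.40 ± 0.915 FPKM and HOXA9 6.96 ± 0.621. HOXA10, a gene of early myeloid progenitors, was the highest HOX gene at 44.9 ± 1.70 FPKM and made up 41.6% of the HOXA sum. HOXA11 (16.9 ± 1.62 FPKM) and HOXA13 (14.9 ± 0.467 FPKM), which pattern the limbs and the urogenital tract, followed.

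HOXC had a different profile, with its highest level at the 3′ end. HOXC4 had 16.6 ± 0.979 FPKM, and HOXC5, which starts from the same exon in the models used for counting, had 1.04 ± 0.179. HOXC6, HOXC8 and HOXC9 lay at 4.30 ± 0.423, 2.56 ± 0.0824 and 2.30 ± 0.653 FPKM. HOXC10, a gene of the lumbar spinal cord, had 6.08 ± 0.743 FPKM and was the last one above 1 FPKM, since HOXC11 had 0.0350 FPKM, HOXC12 had a single count and HOXC13 none.

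In the order of DMSO levels, several neighbours could not be separated. HOXA11 and HOXC4 overlapped in their ranges over the 4 libraries. The same held for neighbours in the run from HOXA9 over HOXA7 to HOXC10, in the run from HOXA6 over HOXC8, HOXA3 and HOXC9 to HOXA4, and in the run from HOXC5 over HOXA2 to HOXB9. Of 17 steps in the order of the 18 genes tested, 9 had overlapping ranges. The step from HOXA10 to HOXA11 was clear, from 42.6 FPKM in the lowest HOXA10 library to 19.3 FPKM in the highest HOXA11 library.

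Paralogs with the same number differed widely between clusters. In group 4, HOXC4 (16.6 FPKM) exceeded HOXA4 (2.22) and HOXB4 (0.152), and HOXD4 had no counts. In group 9, HOXA9 (6.96 FPKM) was followed by HOXC9 (2.30) and HOXB9 (0.770), while HOXD9 had no counts in DMSO. In group 10, HOXA10 (44.9 FPKM) stood above HOXC10 (6.08), and in group 13 HOXA13 (14.9 FPKM) stood above HOXD13 (0.177). These are levels in DMSO, and the differences between genes rest on the exon models used for counting.

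Several of these models share exons. For HOXA9, 72.4% of 2064 exon bases also belong on the same strand to HOXA10-HOXA9, a readthrough gene, and for HOXA10 this share was 7.84%. Fragments wholly inside a shared stretch belong to more than 1 gene and were not counted. Fragments that reach from it into an unshared stretch may have been counted, which would make a level per unshared base too high. Per exon base that no other gene covers on the same strand (570 bases), HOXA9 had 25.2 ± 2.25 FPKM and was the second highest HOX gene after HOXA10 (48.7 ± 1.84 FPKM), in place of sixth over all exon bases. HOXC4, HOXC5 and HOXC6 share an exon of 527 bases, which makes up between 22.4 and 24.6% of each, and levels of these 3 genes are uncertain for the same reason. On the opposite strand HOXA-AS3 covers 74.8% of HOXA7, but it had 0 to 4 counts per library where HOXA7 had 179 to 248. HOXA10-AS covers 22.1% of HOXA10 and had 156 to 347 counts per library.

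PR-957 lowered more HOX genes than it raised. Of the 38 genes, 18 passed the filter on low counts and 9 of these passed an adjusted p of 0.05 (edgeR quasi-likelihood test, Benjamini-Hochberg over all 13179 genes tested). This is 50% of the tested HOX genes, where 46.6% of all tested genes passed. HOXA3, HOXA5, HOXA9, HOXA10, HOXA13, HOXB9, HOXC4 and HOXC9 were lower, and HOXD13 was higher. The share that was lower was 44.4% among HOX genes, against 23.5% of all genes tested, and the share that was higher was 5.56%, against 23.1%. The median log2FC (the log2 fold change of PR-957 over DMSO) of the 18 genes was -0.35 and that of all genes 0.0030, and 15 of 18 had a negative value. HOXB9, which passed the filter through its DMSO libraries alone, is among these genes and had to differ. Without it 8 of 17 genes (47.1%) passed and 7 of 17 (41.2%) were lower. Of these 17 genes, 14 had a negative value, and the median log2FC was -0.35. In these bulk samples fewer cells that carry a transcript and less of it per cell cannot be told apart.

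**Figure D2:**
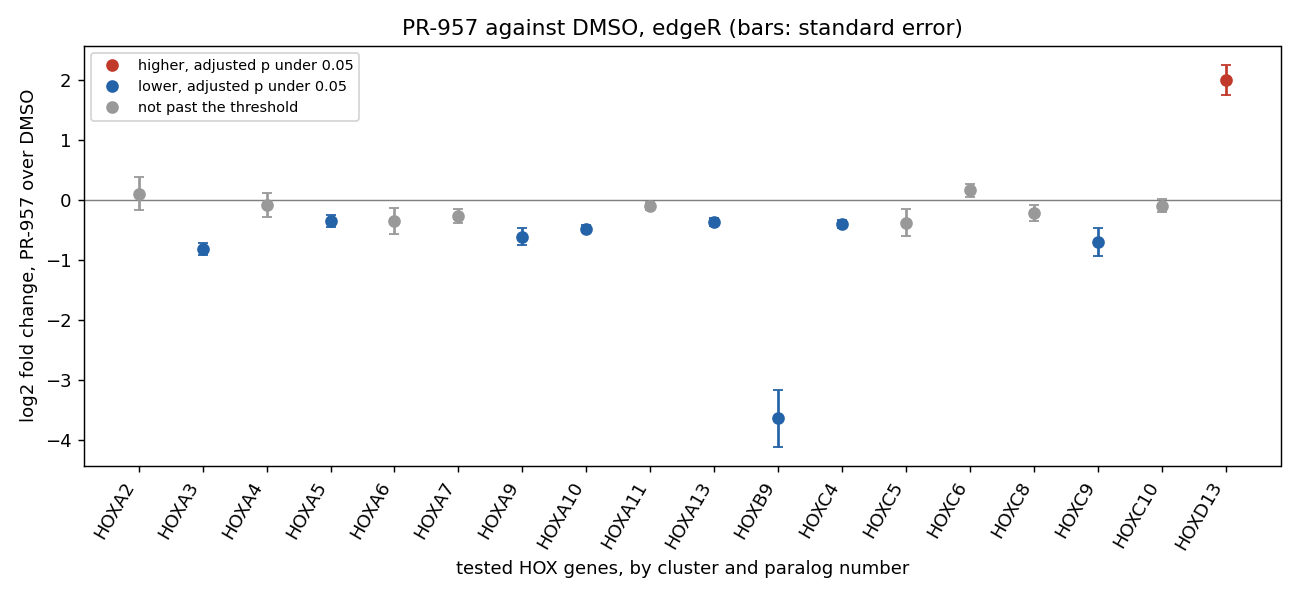
Log2 fold change of PR-957 over DMSO for the 18 tested HOX genes in the order of their clusters. Points are edgeR estimates and bars their standard error; blue marks lower and red higher genes at an adjusted p under 0.05. HOXB9 at -3.64 and HOXD13 at 2.00 lie farthest from 0, and the called genes of HOXA lie between -0.81 and -0.35.

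In CPM the groups did not overlap for 9 of the 18 genes (50%, against 42.5% of all genes tested). Of these, 8 were lower, including HOXB9, which had to differ, and 1 was higher. These were not quite the 9 genes past the threshold. HOXC9 passed although its groups overlapped, and HOXC8 did not pass although its groups were separate. A change of at least 1.5-fold together with the threshold was met by 5 of the 18 genes, and by 13.8% of all genes tested. The 5 were HOXA3, HOXA9, HOXB9, HOXC9 and HOXD13. HOXB9 is counted among them although it passed the filter through its DMSO libraries alone and had to differ.

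Toward the 3′ end of HOXA the gene HOXA3 was lower. HOXA2, a gene of the hindbrain and branchial arches, had 14 to 36 counts per library and a log2FC of 0.11 (95% interval -0.47 to 0.68, adjusted p = 0.778). HOXA3, required for the thymus and parathyroid, had 21.2, 19.4, 18.1 and 24.0 CPM in DMSO and 11.3, 11.1, 12.4 and 12.4 CPM in PR-957 libraries. It fell in all 4 PR-957 libraries below the lowest DMSO library, with a log2FC of -0.81 (SE 0.098, adjusted p = 1.6e-06). Of the 8072 exon bases counted for HOXA3, 52.8% lie in exons of GENCODE v44, and the counts of the remaining bases cannot be told apart from these.

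In the middle of the cluster the values were smaller or did not pass. HOXA4 had a log2FC of -0.09 (95% interval -0.51 to 0.33, adjusted p = 0.736). HOXA5, which is needed for lung and axial skeleton and is known to act in myeloid progenitors, had 17.5, 13.6, 14.9 and 16.7 CPM in DMSO and 11.5, 13.2, 12.2 and 12.4 CPM in PR-957 libraries. The lowest DMSO and the highest PR-957 library of HOXA5 lay close together but did not overlap, and the log2FC was -0.35 (SE 0.099, adjusted p = 0.00683). In replicates 3 and 4 alone the log2FC was -0.37 and did not pass (adjusted p = 0.05002). HOXA6 had the same log2FC of -0.35 with a wider 95% interval from -0.80 to 0.10 (adjusted p = 0.190), on 32 to 76 counts per library. HOXA7, a recurrent target of KMT2A fusions, had 14.8, 12.4, 13.9 and 10.6 CPM in DMSO and 9.97, 10.8, 11.3 and 10.5 CPM in PR-957 libraries. DMSO replicate 4 lay within the PR-957 range, and the log2FC was -0.27 (95% interval -0.50 to -0.04, adjusted p = 0.0539). Without DMSO replicate 4 the log2FC was -0.36 and passed (adjusted p = 0.00661), so the call for HOXA7 depends on that library. Adding a replicate block (adjusted p = 0.0347) or a 2-level replicate term (adjusted p = 0.0428) to the fit also called it lower. Replicates 1 and 2 only did so too (adjusted p = 0.0213), and 15 of 19 alternatives did not.

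HOXA9 and HOXA10, the HOXA genes best known for driving leukemia, were both lower. HOXA9 had 15.5, 14.3, 12.6 and 15.1 CPM in DMSO and 11.3, 10.3, 9.54 and 6.41 CPM in PR-957 libraries. The groups did not overlap, and PR-957 replicate 4 was the lowest library. The log2FC of HOXA9 was -0.61 (SE 0.14, adjusted p = 0.00144), and without PR-957 replicate 4 it was -0.47 (adjusted p = 0.00234). HOXA10 had 126.8, 117.3, 123.3 and 127.6 CPM in DMSO and 94.6, 88.2, 87.2 and 85.0 CPM in PR-957 libraries. With this depth of 1512 to 2922 counts per library, the decrease of HOXA10 by 28.3% (log2FC -0.48, SE 0.055, adjusted p = 8.78e-07) was larger than the spread within either group. HOXA10-AS on the opposite strand was also lower, with a log2FC of -0.60 (SE 0.11, adjusted p = 0.000123).

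The readthrough gene HOXA10-HOXA9 held few fragments of its own. It had 11, 14, 12 and 12 counts in DMSO and 6, 12, 0 and 6 counts in PR-957 libraries, with a log2FC of -1.08 (SE 0.53, adjusted p = 0.102). When its counts were added to HOXA9, the log2FC of HOXA9 was -0.63 (adjusted p = 0.000894), and when they were added to HOXA10, that of HOXA10 stayed at -0.48 (adjusted p = 7.99e-07). Both calls were thus kept wherever these fragments were placed. Fragments wholly inside the shared exons were not counted and could not be placed in this way.

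At the 5′ end HOXA11 and HOXA13 gave different values. HOXA11 had 41.8, 42.8, 44.9 and 51.4 CPM in DMSO and 41.8, 42.1, 44.0 and 40.5 CPM in PR-957 libraries. The groups overlapped, and the log2FC of -0.11 had a 95% interval from -0.25 to 0.04 (adjusted p = 0.224). HOXA13 had 71.7, 75.2, 77.1 and 75.9 CPM in DMSO and 55.0, 65.4, 54.2 and 57.4 CPM in PR-957 libraries. All 4 PR-957 libraries were below the DMSO range, with a log2FC of -0.37 (SE 0.064, adjusted p = 9.35e-05).

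**Figure D3:**
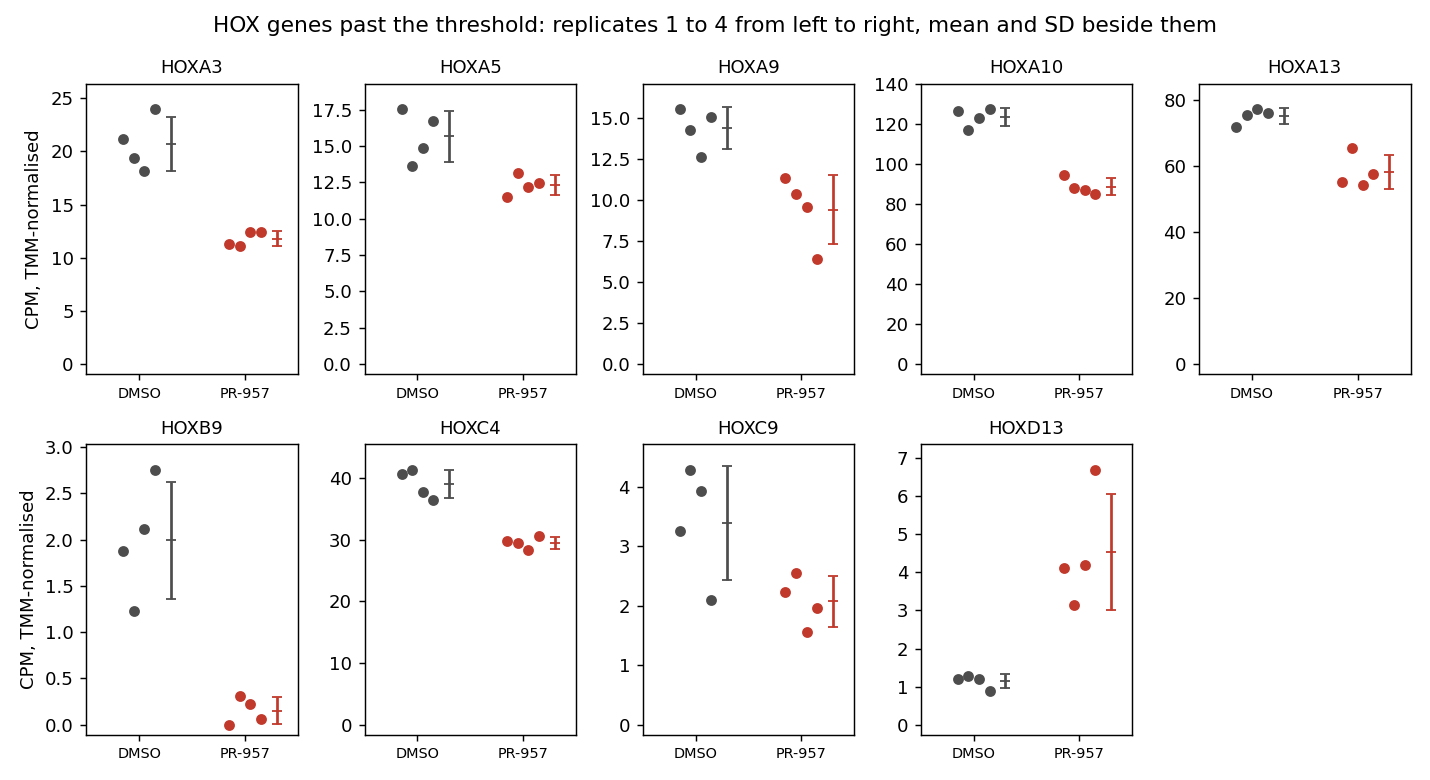
CPM with TMM scaling of the 9 HOX genes past the threshold in each library. Points are replicates 1 to 4 of DMSO (grey) and PR-957 (red), and the bar beside them is mean and SD (n = 4). Groups are separate in each panel except HOXC9, where DMSO replicate 4 lies within the PR-957 range.

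To test whether neighbours in HOXA differed in their response, the log2 ratio of each pair of neighbouring genes was compared between groups by an exact permutation test over all 70 assignments of libraries to groups, two-sided, with a count of 0.5 added. The ratio within a library does not depend on how libraries are scaled. None of the 9 pairs passed after adjustment over the pairs, and 3 had an unadjusted p of 0.0286, the smallest this design allows (adjusted p = 0.0857 for each). These were HOXA2 over HOXA3 with a difference of 0.96 (PR-957 minus DMSO), HOXA3 over HOXA4 with -0.69 and HOXA10 over HOXA11 with -0.38. The test could not decide these 3 pairs, since 3 of 9 pairs at the smallest p stay above 0.05 after adjustment. For HOXA10 over HOXA11 the log2 ratio was 1.60, 1.45, 1.46 and 1.31 in DMSO and 1.18, 1.07, 0.988 and 1.07 in PR-957 libraries, with no overlap. For HOXA11 over HOXA13 the difference was 0.27 (exact p = 0.0571, adjusted p = 0.129). For HOXA9 over HOXA10 the difference was -0.16 (exact p = 0.486, adjusted p = 0.624), so a difference in response between these genes was not shown.

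**Figure D4:**
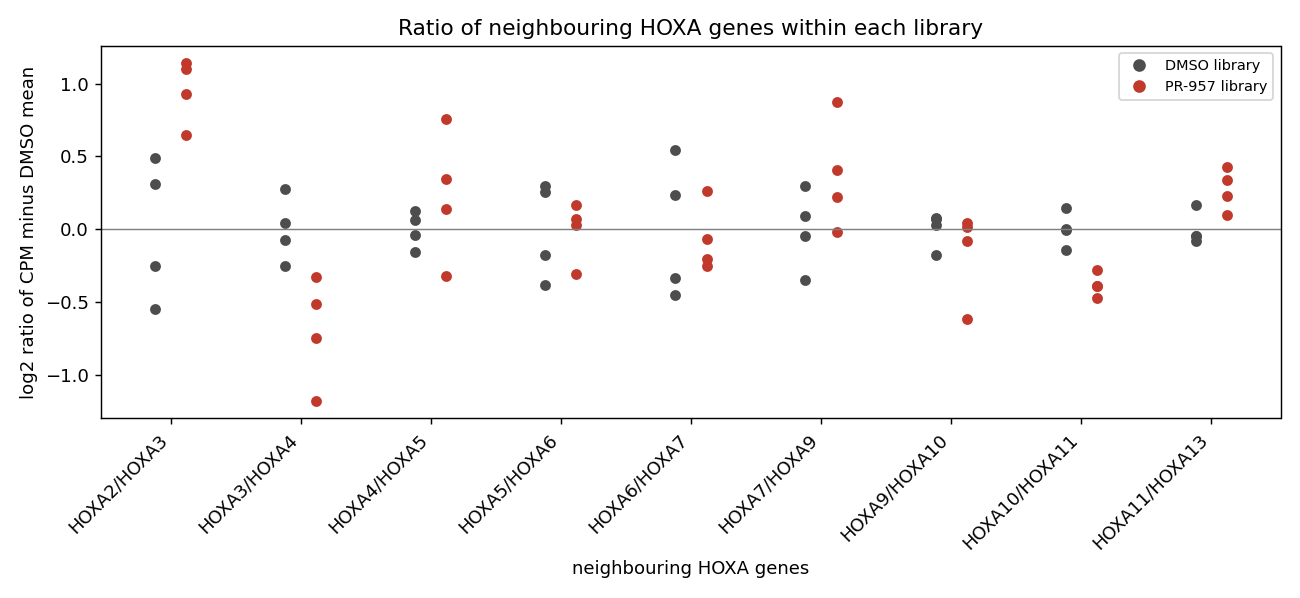
Log2 ratio of CPM of each pair of neighbouring HOXA genes in each library, minus the mean of the DMSO libraries for that pair. Points are libraries (grey DMSO, red PR-957). Groups are separate for HOXA2/HOXA3, HOXA3/HOXA4 and HOXA10/HOXA11.

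In HOXB only HOXB9 passed the filter, and it had the most negative fold change of the HOX genes. HOXB9, a gene of the thoracic skeleton, had 30, 22, 35 and 63 counts in DMSO and 0, 6, 5 and 1 counts in PR-957 libraries. It passed the filter through its DMSO libraries alone, since all 4 of them and none of the PR-957 libraries exceeded its limit of 0.553 CPM. The sums were 150 and 12 counts, a ratio of 13.1 after scaling by library size (95% exact interval 7.27 to 25.9, which covers counting error only). The log2FC was -3.64 (SE 0.47), and since a gene that enters in this way had to differ, it is given as a description. In level per length HOXB9 went from 0.770 ± 0.244 to 0.0578 ± 0.0565 FPKM. Its mean in DMSO lay below that of each tested HOXA and HOXC gene, with a range that overlapped the range of HOXA2.

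The remaining HOXB genes were too low for the filter. HOXB3 had 43 counts over the DMSO and 13 over the PR-957 libraries, a scaled ratio of 3.46 (95% exact interval 1.83 to 7.02). HOXB8 had 21 and 5 counts and HOXB4 22 and 10 counts, with scaled ratios of 4.40 (1.61 to 14.9) and 2.30 (1.05 to 5.45). HOXB2 went the other way with 7 and 18 counts. The exact intervals pool the libraries of each group and cover counting error only. Per library, the counts of HOXB2, HOXB3, HOXB4 and HOXB8 overlapped between the groups. In a fit without the filter, HOXB3 had a log2FC of -1.82 (adjusted p = 0.00693) and HOXB8 of -2.04 (adjusted p = 0.0565). In the same fit HOXB4 had -1.17 (adjusted p = 0.254) and HOXB2 1.24 (adjusted p = 0.298). Only 35.9% of the 18368 exon bases counted for HOXB3 lie in GENCODE exons, and 52.7% of the 4130 counted for HOXB8. HOXB7 had 3 and 7 counts, HOXB5 and HOXB13 had at most 2 counts in any library, and HOXB1 and HOXB6 had none, which allows up to 0.0924 FPKM for HOXB1 and 0.0845 FPKM for HOXB6 in any library.

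In HOXC, HOXC4 and HOXC9 were lower and the other 4 genes tested did not pass. HOXC4 had 40.6, 41.3, 37.8 and 36.5 CPM in DMSO and 29.8, 29.4, 28.3 and 30.5 CPM in PR-957 libraries. The PR-957 libraries lay close together and all below DMSO, with a log2FC of -0.40 (SE 0.067, adjusted p = 6.69e-05). HOXC5 had a similar log2FC of -0.38 on 29 to 48 counts per library, with a 95% interval from -0.85 to 0.08 (adjusted p = 0.169). HOXC6, which shares the exon of 527 bases with both, had a log2FC of 0.16 (95% interval -0.06 to 0.39, adjusted p = 0.232). Of the 2140 exon bases counted for HOXC5, 75.3% lie in GENCODE exons, where this gene begins at base 54033050 of chromosome 12. HOXC8, a gene of brachial motor neurons, had 6.01, 6.46, 6.22 and 6.07 CPM in DMSO and 5.40, 4.96, 5.94 and 4.89 CPM in PR-957 libraries. Its groups did not overlap, but the log2FC of -0.22 had a 95% interval from -0.51 to 0.06 (adjusted p = 0.189).

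HOXC9, a gene of thoracic motor neurons, had 3.26, 4.29, 3.92 and 2.10 CPM in DMSO and 2.23, 2.56, 1.55 and 1.97 CPM in PR-957 libraries. DMSO replicate 4 lay within the PR-957 range, and the log2FC was -0.70 (SE 0.24, adjusted p = 0.0215). It did not pass without DMSO replicate 2 (log2FC -0.56, adjusted p = 0.0852), without DMSO replicate 3 (-0.62, adjusted p = 0.0665) and without PR-957 replicate 3 (-0.58, adjusted p = 0.0809). HOXC10 had a log2FC of -0.09 (95% interval -0.32 to 0.14, adjusted p = 0.509). HOXC11 had 8 and 5 counts over the groups, HOXC12 had 1 count in all and HOXC13 had none.

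HOXD13, a gene of the digits, rose and was the only HOXD gene to pass the filter. It had 1.19, 1.28, 1.21 and 0.874 CPM in DMSO and 4.12, 3.13, 4.20 and 6.69 CPM in PR-957 libraries. Each PR-957 library exceeded each DMSO library, with PR-957 replicate 4 the highest. The log2FC was 2.00 (SE 0.25, adjusted p = 2.65e-06), and the sums of 82 and 345 counts gave a scaled ratio of 4.02 (95% exact interval 3.15 to 5.18). Per length HOXD13 rose from 0.177 ± 0.0280 to 0.704 ± 0.235 FPKM and stayed low. Of the 6442 exon bases counted for it, 37.5% lie in GENCODE exons, because the model used for counting begins at base 176087487 of chromosome 2 and the GENCODE gene at base 176092721. Counts of the extended and of the known exons cannot be told apart.

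Summed over the clusters, the level with PR-957 was 83.5 ± 2.00 FPKM for HOXA, 27.5 ± 0.841 for HOXC, 0.375 ± 0.116 for HOXB and 0.783 ± 0.208 for HOXD. The share of HOXA in the HOX total was 75.9% in DMSO and 74.4% in PR-957, and that of HOXC 23.2% and 24.5%. HOXA10 remained the highest HOX gene in both groups.

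**Figure D5:**
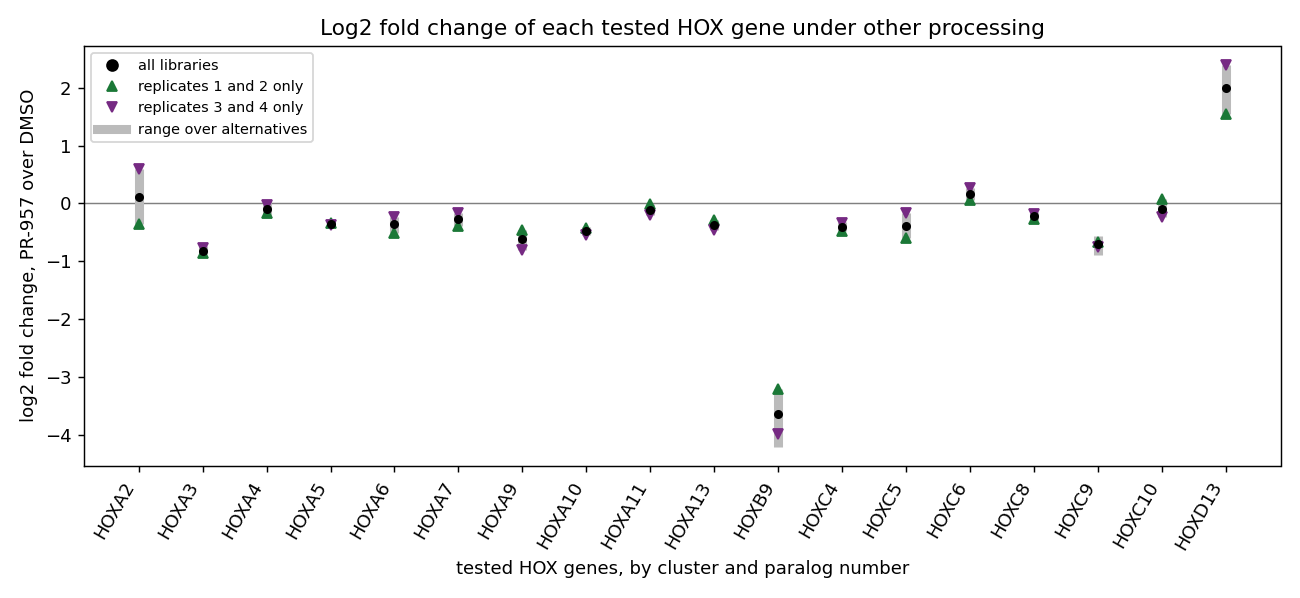
Log2 fold change of the 18 tested HOX genes under other processing. Black points are the values with all libraries, grey bars the range over the alternatives tried, and triangles the fits within replicates 1 and 2 or within replicates 3 and 4. HOXA2, HOXA4 and HOXC10 cross 0, and none of the 9 genes past the threshold does.

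Genes of the machinery around HOX transcription were counted from lists of known members in the same fit. Of 5 tested TALE cofactors, 3 were lower and none higher, with a median log2FC of -0.22. PBX3, a DNA-binding partner of HOXA9, had 113.1 ± 3.29 CPM in DMSO and 67.8 ± 3.58 CPM with PR-957 and the largest change of this list (log2FC -0.74, SE 0.056, adjusted p = 3.08e-09). Of 13 members of the KMT2A and menin complexes and their DOT1L partners, 3 were higher and 5 lower (median -0.08). Among them PSIP1, which tethers menin and KMT2A to chromatin, was lower (-0.79, adjusted p = 1.39e-09), MEN1, which encodes menin, was higher (0.28, adjusted p = 0.0018), and KMT2A had -0.08 (adjusted p = 0.393). The counts of KMT2A hold both the normal allele and part of the fusion, which the table does not separate.

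Of 18 tested genes of the Polycomb complexes, which keep HOX clusters silent, 3 were higher and 5 lower (median -0.04). With library totals in place of TMM 5 were higher and 3 lower. Of 7 tested genes of retinoic acid signalling and CDX factors, upstream inputs to HOX genes, DHRS3, a retinal reductase, was lower (-0.91, adjusted p = 0.00011), none was higher and the median was -0.04. Of 12 tested genes that flank the clusters, 2 were higher and 4 lower (median -0.05), and CBX5 beside HOXC had the largest change (-0.62, adjusted p = 9.79e-08). SKAP2, next to the 3′ end of HOXA, had 0.01 (SE 0.064, adjusted p = 0.945), and EVX1, next to the 5′ end, had 5 counts in all. Beside these counts, 46.6% of all genes tested passed in either direction. PBX2, RXRB, PHF1, RING1 and PCGF2 are placed on more than 1 sequence of the assembly, so their counts are uncertain.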

How the data were processed

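RNA was sequenced from MOLM-13 cells, 4 libraries with DMSO and 4 with 100 nM PR-957 (72 h). Per the submitters' notes, the authors used Trimmomatic 0.39, STAR 2.7.10a on hg38 and featureCounts 2.0.1. Per the file headers, the authors counted fragments with both ends mapped on the reverse strand of RefSeq genes, and deposited these counts without normalization. The labels do not say whether the kit marks strand. The header named 16 libraries, and 8 of them were in the table. Rows without values (6) were left out. The authors' own comparison table (DESeq2 fold changes and p-values) was not used.

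Groups and replicate numbers came from the sample titles. The contrast of PR-957 over DMSO was fitted in edgeR 4.0.16 under R 4.3.3 (robust glmQLFit, then glmQLFTest, two-sided, on all 8 libraries with TMM, the trimmed mean of M-values, and no covariate). The filter filterByExpr (minimum count 10) kept 13179 genes with 99.9% of counts. The SE of a log2FC was its size over the root of its F statistic. FPKM used exon bases from the count table. Neighbour ratios used exact permutation in scipy 1.17.1 (Python 3.11.15). The fit was tested on simulated data. Replicates were compared by a chi-square per gene (lowest 3.19, DMSO replicates 1 and 3, where sampling noise gives about 1), and all were kept. A count of 0 was read as at most 3 counts, or 0.130 to 0.180 CPM by library. These limits and intervals cover counting error only.

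Named were the HOX genes, HOXA10-HOXA9, KMT2A, MEN1, SKAP2, EVX1 and, from each list, the gene past the threshold with the largest absolute log2 fold change. A total of 2 genes are not reported here and were left out of counts, sums and lists. HOXA10-AS and other antisense genes were named for their overlap. The HOX genes and lists were chosen with earlier results of these data known. Alternatives were DESeq2 1.42.0, limma-voom (limma 3.58.1), other scalings and filters, a replicate block, a 2-level term for replicates 1 and 2 against 3 and 4, fits within these, leaving out each library, other lengths and TPM, and the readthrough counts moved to HOXA9 or HOXA10.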

Additional observations from a re-analysis of the deposited data

Results flagged for a closer look

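Within-group outliers were looked for with Dixon's ratio in the 36 groups formed by the 18 tested HOX genes and both treatments, of which chance flags about 1 in 20. HOXA4 in DMSO replicate 1 stood apart, with 4.57 CPM against 3.40 to 3.58 CPM in the other DMSO libraries (ratio 0.842, just above the critical value at 95%). Without this library the log2FC of HOXA4 was 0.01 (adjusted p = 0.966), and it did not pass the threshold with or without it.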

How the results depend on the processing

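Of the 9 HOX genes past the threshold, HOXA3, HOXA9, HOXA10, HOXA13, HOXC4 and HOXD13 passed in every alternative run. HOXB9 did too, but it passed the filter through its DMSO libraries alone and had to differ, so this is a description. HOXA5 passed in 18 of 19 alternatives and HOXC9 in 15 of 19. In replicates 3 and 4 only, HOXC9 had a log2FC of -0.76 (adjusted p = 0.0971), against -0.70 in all libraries. HOXA7 passed in 4 alternatives: the replicate block (adjusted p = 0.0347), the 2-level term (0.0428), replicates 1 and 2 only (0.0213) and without DMSO replicate 4 (0.00661), in a range up to 0.473. The log2FC turned direction for HOXA2 (-0.350 in replicates 1 and 2 only, and -0.0812 to 0.285 when single libraries were left out, lowest without DMSO replicate 3), HOXA4 (-0.251 to 0.0416 when single libraries were left out, above 0 without DMSO replicate 1 or PR-957 replicate 2) and HOXC10 (0.0691 in replicates 1 and 2 only), none of which passed the test. The cause was not tested.

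Polycomb genes higher numbered 5 and lower 3 with library totals alone. Retinoic acid and CDX genes lower numbered 2 with DESeq2. Flanking genes higher numbered 1 with DESeq2, 4 with library totals alone and 1 with no filter on low counts. Library totals alone moved the median of all genes to 0.08 on the log2 scale, with 4066 genes higher and 2353 lower. Same-numbered replicates correlated in their deviations by 0.151, 0.213, 0.0985 and 0.198, and differently numbered ones by -0.187 to 0.114. The labels name no shared batch, and 1 of the 4 values was under the limit of 0.1 set for every pair, so the fit without a block was kept, although 7 of 8 libraries correlated best with their own number. The replicate block called 3513 genes higher and 3400 lower, and of the HOX genes it changed the call of HOXA7 alone. In level per length, unique exon bases moved HOXA9 to rank 2 and HOXA11, HOXA13 and HOXA5 to ranks 4, 5 and 6. By TPM 17 HOX genes had a DMSO mean of at least 1, against 15 by FPKM, which adds HOXA2 (1.90) and HOXB9 (1.65). Of the 20 HOX genes that did not pass the filter, 5 had no counts, 9 had fewer than 10 in all libraries together and 6 had 10 or more.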

Other observations

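Among the HOXD genes other than HOXD13, which did not pass the filter on low counts, counts were 1 for HOXD10 in DMSO replicate 3 and 1 for HOXD11 in DMSO replicate 2. In PR-957 libraries HOXD11 had 5 counts in replicate 3, HOXD12 had 3 in replicate 2, HOXD9 had 2 in replicate 1, HOXD10 had 1 in replicate 1, HOXD8 had 1 in replicate 3 and HOXD3 had 1 in replicate 4. HOXD1 and HOXD4 had none in any library, which allows up to 0.0996 FPKM for HOXD1 and 0.0365 FPKM for HOXD4.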
